A study of Canis lupus familiaris with 4 samples.

Results

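The miRNAs described here are cfa-mir-204, cfa-mir-455, cfa-mir-328 and cfa-mir-224, measured in extracellular vesicles (EVs) of canine mammary tumor cells. They are 4 of the 673 rows of the deposited table, of which 508 are known miRNAs and 165 are predicted ones. They were selected on the measured values, as miRNAs of host genes that were higher in EVs of the primary tumor cell line than in EVs of the metastatic line, so that difference is given below as a description and was not tested. All 4 passed the filter on low values, a level above 0 in each library of CHMp or of CHMm, which left 326 rows.

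Small RNA was sequenced from EVs of CHMp, a canine mammary gland adenocarcinoma line from a primary tumor, and of CHMm, a line from a metastasis of the same patient. EVs of CHMp are called pTDEs and EVs of CHMm mTDEs. Both lines were cultured alike and kept without serum while EVs were collected, and each line was sequenced as 2 replicate libraries. The comparison is therefore between 1 line of each kind from 1 animal, and a cell line difference cannot be told apart from a difference between primary tumor and metastasis. The libraries were run on HiSeq and NovaSeq instruments, and which library was run on which is not given in the sources used here.

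A miRNA is a short RNA that guides Argonaute proteins to partly complementary mRNAs, mainly through its seed, the bases near its 5′ end, and lowers their translation and stability. Many miRNAs lie inside the introns of protein-coding genes and can be cut from the host transcript, while others have a promoter of their own. Cells release some miRNAs in EVs, and the amount in EVs depends both on the amount in the cell and on sorting and release. An EV level is thus no direct measure of host gene transcription.

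miR-204 is the miRNA of TRPM3, a cation channel gene, and is best known for its part in the eye and in pigmented epithelium. miR-455 is the miRNA of COL27A1, a fibrillar collagen gene, and is known from cartilage. miR-328 is the miRNA of ELMO3, whose protein family acts in engulfment and cell motility. miR-224 is the miRNA of GABRE, which encodes the epsilon subunit of the GABA-A receptor, and it is often raised in liver cancer.

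The RefSeq gene table of the UU_Cfam_GSD_1.0 assembly placed MIR204 on chromosome 1 inside TRPM3, where the long noncoding gene LOC111096727 also spans it. It placed MIR455 on chromosome 11 inside COL27A1 and MIR328 on chromosome 5 inside ELMO3. MIR224 lay on chromosome X inside GABRE and inside a second protein-coding gene, LOC119868539. The table gives neither exons nor strand, so whether each miRNA lies in an intron, and on the strand of its host, was not checked. The deposited rows are named by precursor, so a value does not say which arm of the hairpin was sequenced.

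One sequence bears on a member. The predicted rows cfa_novel_94 and cfa_novel_95 share 1 mature sequence, and its bases 2 to 8, in capitals below, are listed by the prediction table as the seed of the 3′ arm of miR-455. Their hairpins lie at chr14:45001576-45001633 and chr14:45167494-45167551 of CanFam3.1, both on the plus strand.
cfa_novel_94 and cfa_novel_95: cCAGUCCAgcugccccggcac

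The deposited values are on a logarithmic scale. They were converted to CPM, the reads of a row scaled to a fixed library total of 1000000, and then to reads, by a step in CPM, worth 1 read, of which the low values of a library are whole multiples. Summed over rows, the pTDE libraries held 6296387 reads (replicate 1) and 5053602 reads (replicate 2). Rows of copies of a miRNA repeat the same or nearly the same reads, as cfa-mir-24-1 and cfa-mir-24-2 with 62425 each in pTDE replicate 1. The sums may therefore exceed the number of separate reads. The mTDE libraries were shallower, with 3457024 and 2330263 reads. One read was worth 0.159 and 0.198 CPM in pTDEs and 0.289 and 0.429 CPM in mTDEs. Intervals below are exact 95% Poisson intervals and cover counting error only.

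The low end of the mTDE libraries was sparse, and this touches each member listed at 0 there. Rows with 1 to 9 reads made up 8.77% and 14.1% of the rows above 0 in pTDEs, and 2.29% and 3.61% in mTDEs. The 5th percentile of the read numbers above 0 was 4.05 and 4 reads in pTDEs, and 18.25 and 14 reads in mTDEs, or 5.28 and 6.01 CPM. A 0 in 1 mTDE library was often not repeated: 77 rows were at 0 in replicate 1 with at least 10 reads in replicate 2, the highest at 111 CPM, and 53 rows were the other way round, the highest at 31.8 CPM. In pTDEs there were 22 and 23 such rows, the highest at 9.89 and 11.8 CPM. Even read numbers made up 68.6% to 83.8% of the rows with 1 to 60 reads, and forward and reverse reads of a sample had been merged before counting, so reads need not be independent molecules and the intervals may be too narrow. A listed 0 in mTDEs is therefore not read as absence.

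miR-204 was the most abundant of the 4 miRNAs and the one found in every library. It stood at 338 CPM (323 to 352) in pTDE replicate 1 and 610 CPM (588 to 632) in replicate 2. In mTDEs it stood at 5.78 CPM (3.53 to 8.93, 20 reads) in replicate 1 and 45.5 CPM (37.2 to 55.0, 106 reads) in replicate 2. Both pTDE libraries lay above both mTDE libraries, and the mTDE libraries themselves were far apart.

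The mean level of miR-204 was 474 ± 192 CPM (SD, n = 2) in pTDEs. In mTDEs the mean was 25.6 ± 28.1 CPM (SD, n = 2), which gives a ratio of means of 18.5. The lower pTDE library was 7.43-fold above the higher mTDE library, and the other extreme was 105-fold. On the log2(CPM + 1) scale the difference was 4.68 (SE 1.16). It was 3.29 without mTDE replicate 1 and 6.07 without mTDE replicate 2, so its size rested on which mTDE library was used. The median of all tested rows moved the same way, from -0.03 to -0.58 and 0.46. miR-204 ranked 92 of 342 and 79 of 347 among the rows above 0 in pTDEs, and 284 of 306 and 193 of 332 in mTDEs.

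miR-455 stood at 14.0 CPM (11.2 to 17.2, 88 reads) and 20.6 CPM (16.8 to 24.9, 104 reads) in pTDE replicates 1 and 2. The mean was 17.3 ± 4.67 CPM (SD, n = 2), while neither mTDE library listed a read of it. Its lower pTDE level would have given 48.3 and 32.6 reads at the depth of mTDE replicates 1 and 2, above the 5th percentile of the read numbers in both. Of the 60 other rows whose mean pTDE level lay within 2-fold of that of miR-455, 3 (5%) were at 0 in both mTDE libraries and 12 in 1 of them.

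miR-328 stood at 3.65 CPM (2.32 to 5.48, 23 reads) and 5.94 CPM (4.01 to 8.47, 30 reads) in pTDEs, with a mean of 4.80 ± 1.62 CPM (SD, n = 2). Its value was likewise 0 in each mTDE library. Its lower pTDE level would have given 12.6 and 8.50 reads there, below the 5th percentile in both. Of 46 other rows of like pTDE level, 11 (23.9%) were at 0 in both mTDE libraries and 16 in 1 of them. A level in mTDEs as high as that in pTDEs was thus in the range where these libraries listed few rows.

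miR-224 was the lowest of the 4 by mean, at 3.81 CPM (2.44 to 5.67, 24 reads) and 2.77 CPM (1.51 to 4.65, 14 reads) in pTDEs, a mean of 3.29 ± 0.735 CPM (SD, n = 2), and was listed at 0 in both mTDE libraries. Its lower level would have given 9.57 and 6.45 reads there, again below the 5th percentile. Of 53 other rows of like pTDE level, 21 (39.6%) were at 0 in both mTDE libraries and 16 in 1 of them. For miR-328 and miR-224 a difference between pTDEs and mTDEs was not measurable beyond this limit.

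**Figure D1:**
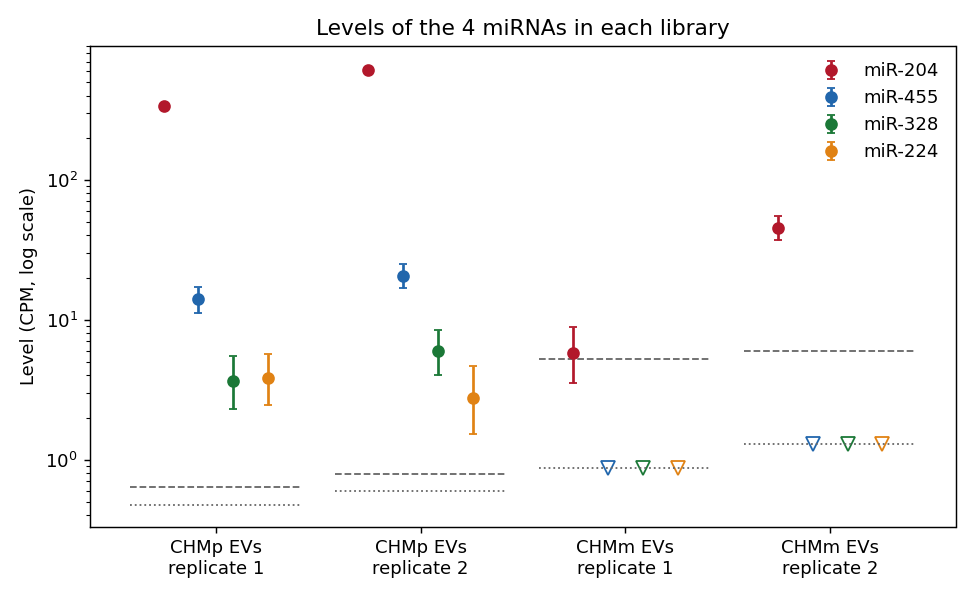
Level in CPM on a log axis of the 4 miRNAs in each library, with exact 95% Poisson intervals as bars. Open triangles mark miRNAs listed at 0, drawn at 3 reads (dotted line), and the dashed line is the 5th percentile of the read numbers above 0. In pTDEs the 4 miRNAs lie above both lines, while 3 of them are listed at 0 in the mTDE libraries, where the dashed line lies at 5.28 and 6.01 CPM.

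Folds against the 0 values depended on the limit set for them. Against 3 reads per mTDE library, a mean of 1.08 CPM, the mean pTDE level was 16.0-fold for miR-455, 4.45-fold for miR-328 and 3.05-fold for miR-224. Against the 5th percentile levels, a mean of 5.64 CPM, the ratios were 3.06, 0.850 and 0.583. The first set would be lower bounds if reads were independent and every read were listed, which the low end of the mTDE libraries does not bear out. Only the ratio of miR-455 stayed above 1 under both limits. The fitted log2 differences of 4.17 (SE 0.61), 2.51 (SE 0.48) and 2.09 (SE 0.42) for miR-455, miR-328 and miR-224 depend on the added 1 CPM and are no bounds either.

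**Figure D2:**
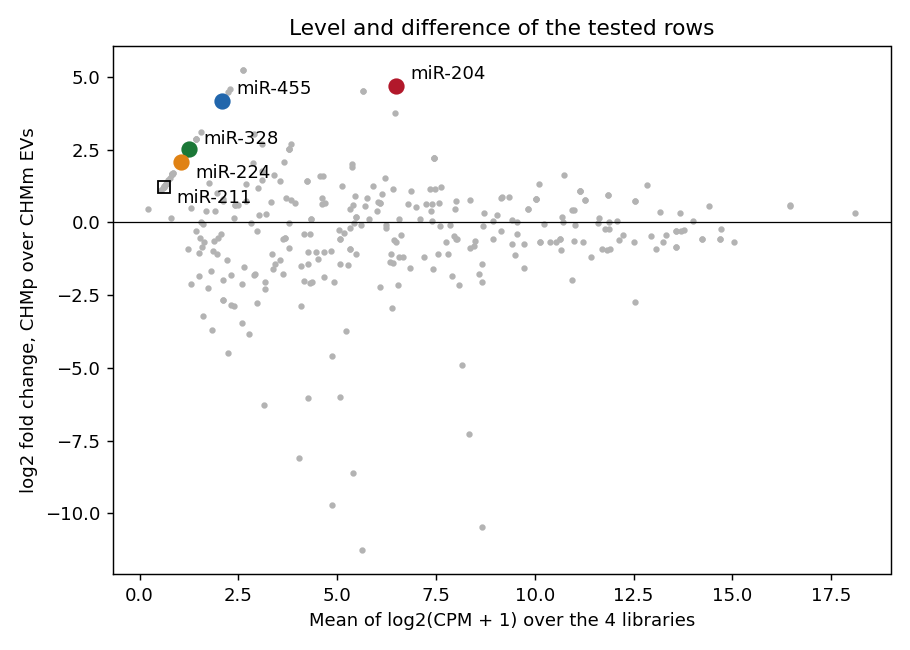
Each point is 1 of the 326 tested rows, with the mean of log2(CPM + 1) over the 4 libraries on the x axis and the fitted log2 fold change, pTDEs (CHMp) over mTDEs (CHMm), on the y axis. miR-204 (4.68) lies at a higher level than the other members, with the unlabeled cfa-mir-133a and cfa-mir-133c (4.51) and cfa-mir-450b (3.75) in the same region. miR-455, miR-328 and miR-224, and miR-211 as an open square, lie on the upper left edge formed by rows listed at 0 in both mTDE libraries.

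The spread between replicates was compared with that of other rows. Across the 267 rows with at least 10 reads in both pTDE libraries, replicates differed by a median of 0.64 on the log2 scale, sign disregarded. miR-204 was 1.81-fold higher in replicate 2, miR-328 1.63-fold and miR-455 1.47-fold, while miR-224 was at 0.727 of its replicate 1 level. In log2 terms these were 0.85, 0.70, 0.56 and -0.46, and 37.8%, 47.2%, 57.7% and 65.5% of the 267 rows differed at least as much. None of the 4 thus stood out in pTDEs.

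In mTDEs that median was 0.88 over 240 rows. miR-204 differed 7.87-fold between the mTDE libraries, or 2.98 on the log2 scale, and 19 of the 240 rows (7.92%) differed as much or more. The median signed difference of these rows was 0.62 in favor of replicate 2, in the direction of miR-204.

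**Figure D3:**
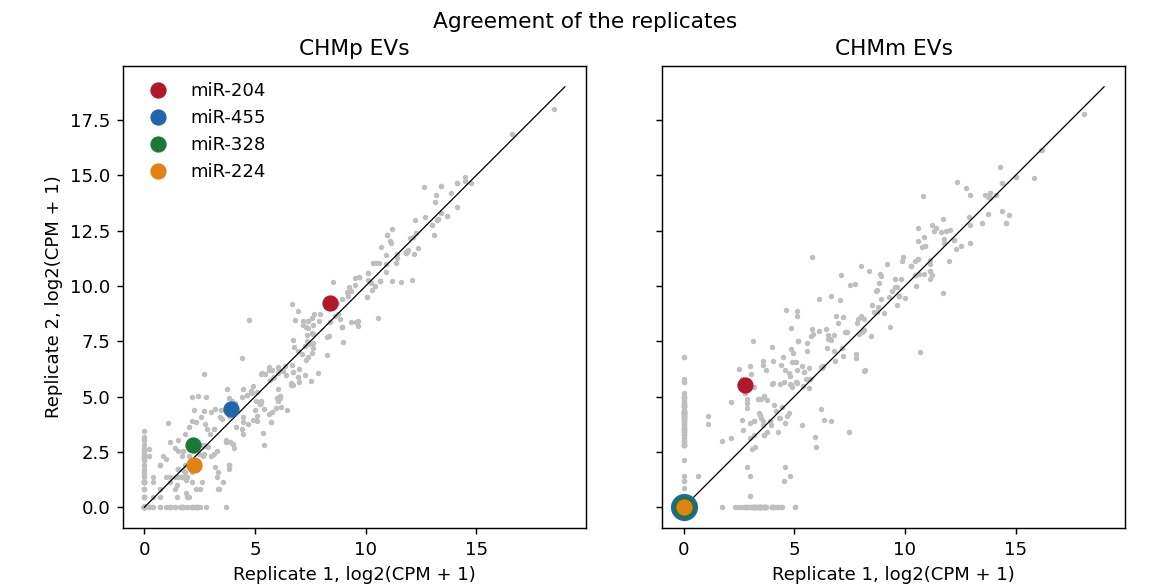
log2(CPM + 1) in replicate 1 (x axis) against replicate 2 (y axis) for pTDEs (left) and mTDEs (right), with all rows in gray, the 4 miRNAs in color and the line of equality. The 4 miRNAs lie near the line in pTDEs; in mTDEs miR-204 lies above it and the others share the origin as nested rings, beside many gray rows at 0 in 1 library and well above 0 in the other.

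Within pTDEs the order by CPM was miR-204, then miR-455, then miR-328 and miR-224. miR-204 exceeded miR-455 24.1-fold in replicate 1 and 29.6-fold in replicate 2, and miR-455 exceeded miR-328 3.83- and 3.46-fold. The ratio of miR-204 to miR-328 was 92.5 and 103. Ratios to miR-224 were less alike in the 2 libraries, at 88.7 and 220 for miR-204 and at 3.67 and 7.44 for miR-455. miR-328 was at 0.958 of miR-224 in replicate 1 and at 2.15 times its level in replicate 2, and their counting intervals overlapped in both libraries, so these neighbors were not separated.

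The members share the separation that selected them with many rows. Of the 326 tested rows, 85 (26.1%) had both pTDE libraries above both mTDE libraries and 89 (27.3%) the reverse. In limma with Benjamini-Hochberg adjustment, 0 rows (0%) were called higher in pTDEs and 6 (1.84%) higher in mTDEs at an adjusted p under 0.05. Of all 326 rows, 33 (10.1%) were higher in pTDEs at an unadjusted p under 0.05 with a log2 fold change beyond 1, and 30 (9.2%) were lower. Before adjustment 33 rows higher in pTDEs were under 0.05, and limma voom on the recovered reads called 5, with 11 higher in mTDEs. A pseudocount of 0.1 CPM turned the balance to 28 higher in pTDEs and 11 higher in mTDEs, and the deposited values taken as CPM to 39 and 11. Without mTDE replicate 1, and likewise without mTDE replicate 2, 0 rows were called in either direction. With median-ratio size factors in place of a fixed total, 5 rows were called higher in pTDEs and 9 higher in mTDEs. Since the members were chosen by this contrast, nothing is read from these counts about them.

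Rows of a like mean level over the 4 libraries, within 2-fold, were set beside each member. Around miR-204, at 125 to 499 CPM, 11 of 42 other rows had both pTDE libraries higher, and 14 had both lower. Around miR-455, at 4.32 to 17.3 CPM, 7 of 84 rows were higher in both pTDE libraries, and 21 were lower. Around miR-328, 12 of 110 rows were higher and 5 were lower. Around miR-224 the numbers were 22 and 2 of 99. These rows were drawn from all 673, not from the 326 tested, so their shares do not compare with those of the tested rows. Around miR-204, miR-455, miR-328 and miR-224, 2, 20, 61 and 43 of them were at 0 in both pTDE libraries. At 0 in both mTDE libraries were 0, 3, 13 and 37. The members are higher by selection, so they are not ranked among these rows. There were 37 rows found in both pTDE libraries and in neither mTDE library, of which 28 had distinct values, and by mean pTDE level miR-455, miR-328 and miR-224 ranked 4, 10 and 14 among these.

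The rows most like each member were found by Euclidean distance between log2(CPM + 1) values over the 4 libraries. For miR-204 the nearest was cfa-mir-133a, with the identical row cfa-mir-133c, at a distance of 3.30. This muscle miRNA stood at 168 and 346 CPM in pTDEs and at 0 and 111 CPM in mTDEs. cfa-mir-199-1 and its identical copies followed at 3.34, with 481 and 286 CPM against 35.0 and 182 CPM, and cfa-mir-450a at 3.80, with 121 and 131 CPM against 39.6 and 82.0 CPM. These distances exceeded those of the other members below, whose likeness rests largely on shared zeros. Nearest distances of other rows at the level of miR-204 are not given, so no closeness is read from them.

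For miR-455 the nearest was cfa-mir-889, at a distance of 1.23, with 33.0 and 16.2 CPM in pTDEs. cfa_novel_141 (33.2 and 13.8 CPM) and cfa_novel_26 (4.13 and 13.5 CPM) followed at 1.31 and 1.65. For miR-328 they were cfa_novel_75 (3.81 and 4.75 CPM), cfa_novel_63 (2.38 and 4.75 CPM) and cfa_novel_115 (1.91 and 7.13 CPM), at 0.28, 0.53 and 0.71. For miR-224 they were cfa_novel_57 (2.54 and 1.98 CPM), cfa_novel_75 and cfa_novel_77 (2.86 and 1.58 CPM), at 0.56, 0.61 and 0.63. All of these were at 0 in both mTDE libraries, and the likeness of such rows rests largely on those zeros.

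miR-211 has the seed of miR-204 and lies inside TRPM1, the paralog of TRPM3, on chromosome 3 of the RefSeq table. It was a low row, with 1.75 CPM (11 reads) and 0.991 CPM (5 reads) in pTDEs and 0 in both mTDE libraries. Its log2 difference of 1.23 (SE 0.37) was set by the added 1 CPM, and was 3.83 with 0.1 CPM and 0.35 with 5 CPM. It passed the filter only through pTDEs, and both levels were below the 5th percentile levels of the mTDE libraries, so no test of it is given. In CPM, miR-204 thus exceeded its relative by orders of magnitude in pTDEs, and it was selected for being higher there than in mTDEs.

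The host of miR-224 also holds cfa-mir-452, which was at 0 in all 4 libraries. So were cfa-mir-105a and cfa-mir-105b, which lie in LOC119868539 with miR-224. miR-224 was thus the only one of these 4 neighboring rows with reads in pTDEs, at 24 and 14 of them. The predicted rows cfa_novel_94 and cfa_novel_95, printed above with the seed of miR-455, had reads in 1 library: both were at 18.2 CPM (63 reads) in mTDE replicate 1 and at 0 in mTDE replicate 2 and in pTDEs, so no direction is read from them. They share 1 mature sequence, so their identical values are not 2 measurements, and with 1 library above 0 they were not tested.

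The other miRNAs of well known host genes lay on both sides. The list held 30 hosts, of which 29 had a row, giving 34 rows and 32 tested. At an adjusted p under 0.05, 0 were called in either direction; 1 of 32 was higher in pTDEs and 0 lower at an unadjusted p under 0.05 with a log2 fold change beyond 1, beside 10.1% and 9.2% of all tested rows. That 1 row was cfa-mir-33a, which mTDEs listed at 0. Both pTDE libraries lay above both mTDE libraries in 6 (18.8%) and below in 5 (15.6%), and 21 overlapped, beside 26.1% and 27.3% of all tested rows. Of the 6, cfa-mir-33a and cfa-mir-338 were at 0 in both mTDE libraries. The median log2 fold change was 0.08, and -0.03 over all tested rows. It rested on the mTDE libraries: it was -0.37 without mTDE replicate 1 and 0.70 without mTDE replicate 2, where the medians of all tested rows were -0.58 and 0.46. Without pTDE replicate 2 it was -0.07, the same as over all tested rows.

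Among the host gene miRNAs whose cell lines did not overlap, those with the highest differences were cfa-mir-33a of SREBF2, a regulator of cholesterol synthesis, cfa-mir-338 of the kinase gene AATK and cfa-mir-340 of the ubiquitin ligase gene RNF130. cfa-mir-33a stood at 1.91 and 1.58 CPM against 0 and 0 (log2 difference 1.45), and cfa-mir-338 at 3.02 and 0.399 CPM against 0 and 0 (1.25). Both passed the filter only through pTDEs and lay below the 5th percentile levels of the mTDE libraries, so a difference was not measurable for them. cfa-mir-340 stood at 196 and 145 CPM against 77.6 and 82.9 CPM (1.06, limma adjusted p = 0.37) and did not pass the test.

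On the other side, cfa-mir-342 of EVL, a regulator of actin filaments, stood at 5.72 and 12.7 CPM in pTDEs and 73.5 and 21.0 CPM in mTDEs (log2 difference -2.08, limma adjusted p = 0.34). cfa-mir-186 of the splicing factor gene ZRANB2 stood at 2766 and 2474 against 4179 and 5995 CPM (-0.94, limma adjusted p = 0.26). cfa-mir-107 of PANK1, an enzyme of coenzyme A synthesis, stood at 67.4 and 73.6 against 87.4 and 146 CPM (-0.67, limma adjusted p = 0.61). These did not pass the test either.

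**Figure D4:**
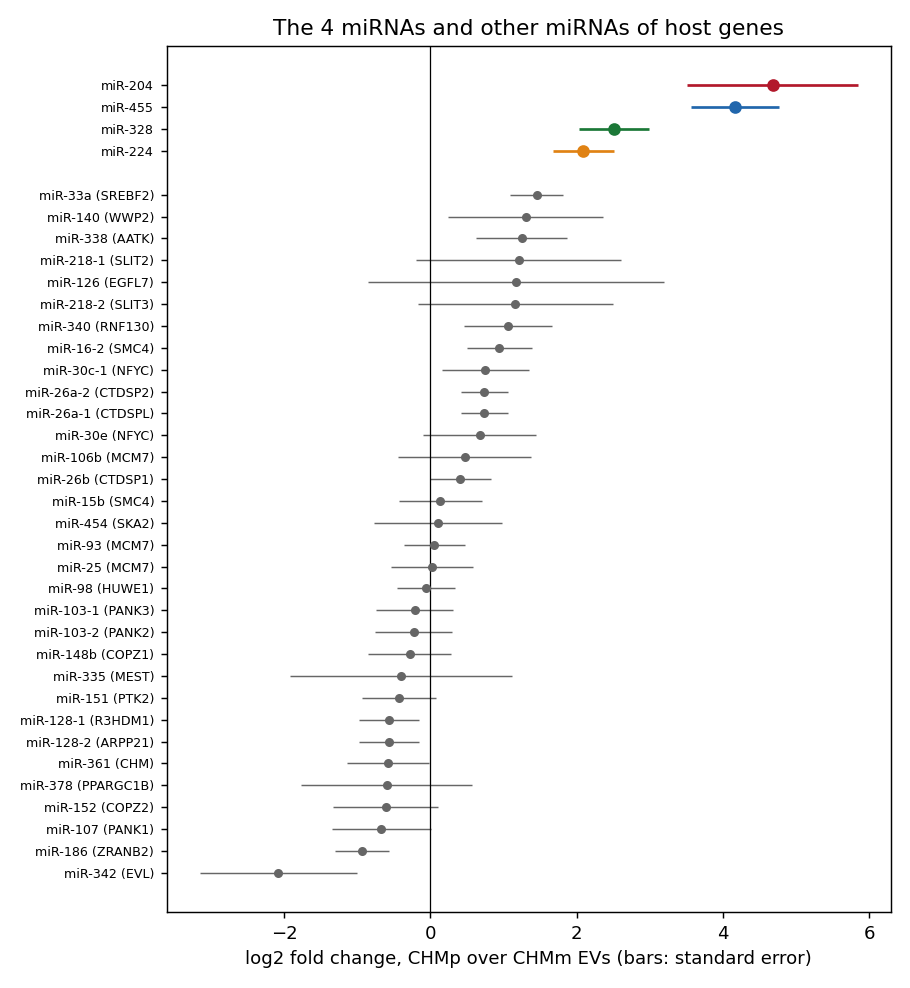
Fitted log2 fold change, pTDEs (CHMp) over mTDEs (CHMm), with its standard error as a bar, for the 4 miRNAs (color) and the 32 tested miRNAs of other host genes (gray, host in parentheses). The gray points lie on both sides of 0 with a median of 0.08 (-0.37 without mTDE replicate 1 and 0.70 without mTDE replicate 2), and the 4 miRNAs lie to the right because they were selected for that.

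Marker miRNAs of epithelium and of other tissues were summed in each library. Of 7 epithelial miRNAs, both mTDE libraries held 7 and both pTDE libraries 3, and in pTDEs cfa-mir-141, cfa-mir-200a, cfa-mir-200b and cfa-mir-429 were at 0, and their summed level was 73.9 to 104 CPM in pTDEs and 23718 to 26413 CPM in mTDEs. Of 8 rows of muscle miRNAs, both pTDE libraries held 5 and both mTDE libraries 1, and the sums were 286 to 389 and 19.7 to 149 CPM. Of 4 rows of blood miRNAs, 3 were above 0 in both libraries of either line, cfa-mir-144 was at 0 in all, and the sums overlapped, at 145 to 525 and 201 to 1574 CPM. The blood miRNA cfa-mir-486-3p was missed by the name match and is not in these counts and sums. It stood at 110 and 349 CPM in pTDEs and at 486 and 1397 CPM in mTDEs. The liver miRNA cfa-mir-122 stood at 98.5 to 158 CPM in pTDEs and 364 to 570 CPM in mTDEs. Their part in the levels of the 4 miRNAs was not tested, and with bulk EV RNA a change in the number of EVs of one origin and a change in their content cannot be told apart.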

How the data were processed

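The small RNA libraries, 2 of pTDEs and 2 of mTDEs, were grouped by their cell line labels. The authors trimmed reads with cutadapt, kept lengths of 22 to 30 bases, merged forward and reverse reads, ran miRDeep2 on CanFam3.1 to predict miRNAs, with a minimum score of 4, and to quantify them along with the known ones. Versions are not given in the sources used here. The deposited values per library are treated as a score: they are described as CPM but have the form of log2(CPM + 1) times a constant of the library. The deposited table also holds the authors' own edgeR comparison, as log2 fold changes, average log2 CPM, a likelihood ratio score, p-values and false discovery rates, and none of these columns was used.

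CPM were recovered as 2^(value/s) - 1, with s set per library so that the total is 1000000 (495, 493, 487 and 426). The value of 1 read was the largest step of which the values under 20 CPM were all whole multiples, within the error left by whole-number rounding of the deposited values and by CPM with 2 decimals. Whole reads were resolved up to 105, 133, 195 and 257 CPM. limma 3.58.1 (R 4.3.3) was run on log2(CPM + 1) of 326 rows (moderated variances with a trend on mean level), with Benjamini-Hochberg adjustment. With prior degrees of freedom of 2.4, much of each variance came from other rows. The study's edgeR test needs counts, which the deposited values are not. Python 3.11.15, numpy 2.4.6, pandas 2.3.3, scipy 1.17.1 and matplotlib 3.10.9 were used for the rest. The conversion and the fit were also run on simulated data. The data for the conversion took its logarithmic form as given. Those for the fit were independent draws, without the zeros seen in only 1 mTDE library. These runs therefore cannot decide whether the form or the fit holds for these libraries.

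The members and lists were chosen with earlier results of these data known. Named rows were the 4 members, rows sharing a seed or host with them, the 3 nearest rows of each, and the 3 largest differences each way among host gene miRNAs whose cell lines did not overlap. RefSeq names matched 480 of the 508 known rows; coordinates of that build are not printed because the files use CanFam3.1. The host list was given by textbook hosts because the gene table has no strand. Of the predicted mature sequences, 99 of 165 are shorter than the stated minimum of 22 bases. The limit at the 5th percentile of the read numbers and the list of all miRNAs inside protein-coding genes were added after the data were seen. Sequences of the 4 members are not printed here.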

Additional observations from a re-analysis of the deposited data

How the results depend on the processing

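The members were selected for their direction, so that it is the same in each fit is no sign of stability. The other pseudocounts moved the log2 differences of miR-455, miR-328 and miR-224 to 7.41, 5.57 and 5.07 (0.1 CPM) and 2.14, 0.96 and 0.73 (5 CPM), and limma voom to 6.58, 4.73 and 4.25. With the deposited values taken as CPM, miR-204, miR-455, miR-328 and miR-224 were at 1.29, 11.01, 10.27 and 10.01. Leaving out 1 library gave 3.29 to 6.07 for miR-204, 3.90 to 4.43 for miR-455, 2.22 to 2.80 for miR-328 and 1.91 to 2.27 for miR-224. A filter at a mean of 10 CPM kept miR-204 and dropped the others.

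Rows called higher in pTDEs, 0 in the main analysis, numbered 28 with 0.1 CPM, 39 with the deposited values, 5 with voom, 4 without a trend, 5 with median-ratio size factors and 0 to 37 when 1 library was left out; the 37, without either pTDE library, were the rows at 0 in both mTDE libraries, whose remaining spread is 0. Rows higher in mTDEs, 6 in the main analysis, numbered 11 with 0.1 CPM, 11 with the deposited values, 11 with voom, 9 each without a trend, with median-ratio size factors and with the filter at a mean of 10 CPM, and 0 to 4 when 1 library was left out, so with 0.1 CPM or the deposited values most calls were higher in pTDEs. Median-ratio size factors moved the median log2 difference of the tested rows from -0.03 to 0.22. Of the host list, 1 row was called higher in pTDEs with 0.1 CPM, 2 with the deposited values and 0 to 2 when 1 library was left out, and of all 110 tested miRNAs inside protein-coding genes 3 were called lower, beside 6 of all 326 rows.

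With the replicate number as a block, 0 rows were called higher in pTDEs and 7 higher in mTDEs. Deviations of same-numbered libraries correlated at 0.15, and with 2 numbers this was not taken as a pairing.

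Ratios to the read limit of mTDEs were 8.02, 2.23 and 1.53 for miR-455, miR-328 and miR-224 with 6 reads and 3.06, 0.850 and 0.583 at the 5th percentile. Without 1 pTDE library they were 13.0 to 19.1, 3.39 to 5.52 and 2.57 to 3.53 with 3 reads.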
